A study of Mus musculus with 2 samples.

Results

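The Ifi200 family was described here by 8 genes, *Ifi203*, *Ifi204*, *Ifi205*, *Ifi207*, *Ifi209*, *Ifi211*, *Ifi213* and *Mndal*, out of 32285 genes in the count matrices. They were chosen by name as a gene family, and all 8 had UMIs in both genotypes. The family below means these 8. *Ifi202b*, *Ifi206*, *Ifi208* and *Ifi214*, of the same series of names, are not in its sums and are given apart. The study compared wild type C57BL/6 mice (PEP-WT) with C57BL/6 mice made by CRISPR/Cas9 to be homozygous for the *Ptpn22* pro-autoimmune allele (PEP-619WW), an arginine-to-tryptophan change in the phosphatase PEP. Mice of both genotypes were infected intravenously with lymphocytic choriomeningitis virus clone 13 (LCMV-cl13), a strain that persists in wild type mice. The study had mock-infected mice in other assays, but the sequenced libraries had no uninfected group. By the methods, spleens were taken at 8 days post infection (dpi) from 4 to 5 mice per genotype, matched for age and sex. Their cells were pooled by genotype, sorted for viability and CD45, and run on the 10x Genomics single cell platform. The substitution was carried by every cell of the mutant mice, and gene counts cannot show it.

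Each genotype had count matrices from 2 runs, called run 1 and run 2, kept apart here and not treated as replicates, since neither the labels nor the methods say how the runs relate. With 1 pooled library per genotype and run, no difference between the genotypes could be tested, and every interval below is a 95% interval that covers counting error only. The cell numbers in the study's methods are those of the run 2 matrices. The study also clustered CD4 T, CD8 T and B cells of PEP-WT, of which the PEP-WT library of run 2 held few. Which run its figures show is not stated. The libraries held 8576 to 14821 barcodes and 55504449 to 77916082 UMIs (unique molecular identifiers, one for each captured RNA molecule), with a median of 2832 to 4837 UMIs per barcode. Any pair of libraries shared 19 to 49 barcodes. The sample labels name liver, a T cell line and tumor-infiltrating cells, whereas the series design and the methods describe spleen, and 3 hepatocyte genes (*Alb*, *Apoa1* and *Ttr*) summed to at most 0.0284 UMIs per 1000000 in any library. Run 2 stood apart from run 1, and which of these sources its cells came from was not tested. In run 2, 274 barcodes of the PEP-WT library and 27 of the PEP-619WW library had UMIs of at least 3 of 6 melanocyte genes against 0 in run 1, and its PEP-WT library had 28 CD8 T, 12 CD4 T, 2 B and 0 plasma barcodes.

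Ifi200 proteins belong to the PYHIN group, in which a pyrin domain for protein contacts is paired with a HIN domain that binds DNA. Their genes lie in one cluster and are induced by interferon, which gave the family its name. *Ifi204* encodes the best known member, a sensor of foreign DNA that signals through STING, and its human counterpart is IFI16. LCMV is an RNA virus, and the counts give the RNA levels of these genes, not the activity of their proteins.

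In GENCODE M21 on GRCm38 the 8 members spanned 466 kb at chr1:173566283-174031810. *Ifi209* lay on the plus strand and the other 7 on the minus strand. The other PYHIN genes *Aim2*, *Ifi206*, *Ifi208*, *Ifi214* and *Ifi202b* lay in the same cluster of 681 kb. A window of 250 bases before to 50 bases after the start site was read from RefSeq (GRCm38.p6) for 7 of the members. The word GAAANNGAAA, the core of the element bound by interferon-activated ISGF3 and IRF proteins, was searched on both strands and occurred in 6 of these 7 members, all but *Ifi209*. Of all 27025 genes with a window, 3.99% held it in at least 1 window. TTCNNNGAA, the core of the element bound by STAT dimers, occurred in 0 of the 7 members and in 9.55% of all genes. A match is a run of letters and not a measured binding site. The 60 bases around the match are shown for the 6 members because they hold the one of the 2 words searched that the members had, with the matched word in capitals and read 5′ to 3′ on the minus strand.

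*Ifi203*, chr1:173942493-173942552: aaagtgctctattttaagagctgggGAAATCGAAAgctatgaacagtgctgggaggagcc
*Mndal*, chr1:173880189-173880248: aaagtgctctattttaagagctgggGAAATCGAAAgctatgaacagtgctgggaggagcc
*Ifi213*, chr1:173599311-173599370: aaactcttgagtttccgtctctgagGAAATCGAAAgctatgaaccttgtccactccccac
*Ifi207*, chr1:173741816-173741875: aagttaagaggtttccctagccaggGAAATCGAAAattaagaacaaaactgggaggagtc
*Ifi205*, chr1:174031855-174031914: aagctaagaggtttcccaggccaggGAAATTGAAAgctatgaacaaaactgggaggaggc
*Ifi211*, chr1:173913049-173913108: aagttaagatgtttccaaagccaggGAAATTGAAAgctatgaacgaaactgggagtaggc

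The *Ifi203* and *Mndal* stretches were identical, and each came from 1 of 2 start sites of its gene. The printed word was GAAATCGAAA in 4 of the 6 members and GAAATTGAAA in *Ifi205* and *Ifi211*. *Mndal* and *Ifi205* each held 1 more match on the opposite strand, given here as read on the strand of the gene. In *Ifi205* it reads TTTCACTTTC at position 23. In *Mndal* it reads TTTCTCTTTC at position -54 from the other of its 2 start sites, so it is not in the stretch printed above. Counted from the start site, the printed word began at position -35 in *Ifi203*, -36 in *Mndal*, -37 in *Ifi211*, -41 in *Ifi207*, -73 in *Ifi213* and -134 in *Ifi205*. Of the other PYHIN genes, 3 of 5 held the word.

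The members are close copies of one another, and reads that match several genes are not counted by Cell Ranger. Of the 90-base windows in the last 500 bases of the annotated transcripts, where 3′ libraries place their reads, 59.4% of those of *Ifi211* were also found in *Ifi205* or *Mndal*, 37.1% of those of *Ifi209* in *Ifi214*, and 29.7% of those of *Ifi205* in *Ifi211* or *Mndal*. For *Mndal* the share was 9.33%, for *Ifi213* 7.54% and for *Ifi203* 1.05%, and for *Ifi204* and *Ifi207* it was 0%. *Mndal* also overlapped *Ifi211* and *Ifi203* on the same strand. Levels of *Ifi211*, *Ifi209* and *Ifi205* are therefore uncertain as levels of a single gene, while *Ifi204* and *Ifi207* are the members least open to misassignment. Shares of member UMIs given below are shares of the UMIs that were counted, which carry this uncertainty for *Ifi211*, *Ifi209* and *Ifi205*, and serve to compare gates, genotypes and runs rather than one gene with another.

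Members of the family were detected in every cell class with at least 50 barcodes. Classes were gates on raw UMIs: CD8 T (*Cd3e* and *Cd8b1* detected), CD4 T (*Cd3e* and *Cd4*), B (*Cd79a* and *Ms4a1*), plasma (at least 5 UMIs of *Mzb1*), monocyte or macrophage (at least 5 of *Lyz2*) and neutrophil (at least 20 of *S100a8* and *S100a9* together). In run 1 PEP-WT the members summed to 1838 UMIs per 1000000 UMIs of the pool (CPM) in the monocyte or macrophage gate (interval 1817 to 1860), 1579 in the neutrophil gate (1546 to 1612), 1211 in the B gate (1200 to 1223), 955 in the CD8 T gate (939 to 972), 954 in the CD4 T gate (921 to 988) and 639 in the plasma gate (630.0 to 648). The CD8 and CD4 T gates did not differ beyond counting error, and each other neighbour in this order did. In run 1 PEP-619WW the order was 1219 CPM in the monocyte or macrophage gate, 851 in B, 840 in neutrophil, 816 in CD4 T, 685 in CD8 T and 429 in plasma. The B, neutrophil and CD4 T intervals overlapped there. Barcodes rich in hemoglobin that passed no gate were taken as a measure of free RNA, which was not tested. They had 142 CPM of the members in PEP-WT (125 to 161) and 112 in PEP-619WW (85.1 to 146). Every gate of run 1 was above that level.

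**Figure D1:**
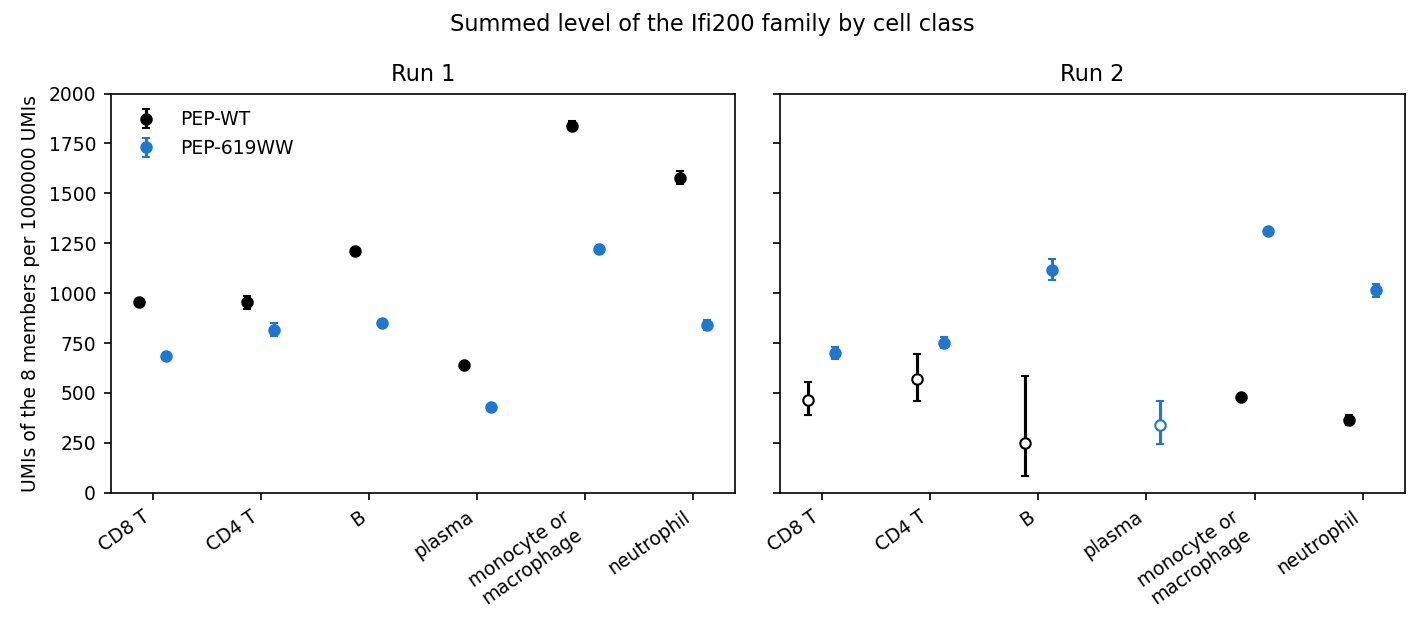
Summed UMIs of the 8 Ifi200 members per 1000000 UMIs (y axis) in each cell class (x axis), for PEP-WT (black) and PEP-619WW (blue) in run 1 (left) and run 2 (right). Points are pooled counts with exact Poisson 95% intervals, and open points rest on fewer than 50 barcodes. PEP-619WW lies below PEP-WT in all 6 gates of run 1 and above it in the monocyte or macrophage and neutrophil gates of run 2.

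Lymphoid and myeloid gates differed in which members they held. In run 1 PEP-WT, *Ifi203*, *Mndal*, *Ifi209* and *Ifi213* made up most member UMIs of the B gate, and *Ifi204*, *Ifi205*, *Ifi207* and *Ifi211* together made up 8.82% of them (8.55 to 9.09). The same 4 genes, grouped after their values were seen, made up 15.8% in CD8 T, 19.4% in CD4 T, 19.0% in plasma, 45.2% in the monocyte or macrophage gate (44.7 to 45.8) and 46.6% in the neutrophil gate (45.5 to 47.6). In PEP-619WW of run 1 the shares were 10.4% in B, 16.4% in CD8 T, 48.0% in the monocyte or macrophage gate and 46.2% in the neutrophil gate. The split between B and myeloid gates was thus present in both genotypes.

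*Ifi204* showed the split most directly, since none of its 3′ windows was shared. In run 1 PEP-WT it had 40.5 CPM in B, 56.7 in CD8 T, 348 in the monocyte or macrophage gate and 400.5 in the neutrophil gate. In run 1 PEP-619WW it had 33.3, 45.4, 259 and 218 CPM in those gates. After each barcode was thinned to 1000 UMIs, 37.9% of PEP-WT monocyte or macrophage barcodes had an *Ifi204* UMI (35.5 to 40.4) and 1.84% of B barcodes did (1.54 to 2.19). The hemoglobin-rich barcodes had 1.17% (0.432 to 2.54), from 6 of 511 barcodes, so the B share was not told apart from this background at this depth. Without thinning the shares were 80.3%, 7.44% and 2.12%, at median depths of 6282 UMIs (monocyte or macrophage), 2837 (B) and 1904 (hemoglobin-rich). By CPM the hemoglobin-rich barcodes had 11.8 (7.21 to 18.2), below the B gate at 40.5 (38.5 to 42.7). B barcodes that passed no other gate had 12.1 (10.4 to 14.0), which overlapped this background. *Ifi207* followed the same division, with 17.1% of thinned monocyte or macrophage barcodes, 0.891% of B barcodes and 0.391% of hemoglobin-rich barcodes. *Ifi203*, in contrast, was found in 37.2% of thinned B barcodes and 27.7% of monocyte or macrophage barcodes against 3.13% of hemoglobin-rich ones, and *Mndal* in 37.0% and 30.3% against 2.74%.

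Run 1 held many barcodes that passed more than 1 gate (2459 in PEP-WT and 1788 in PEP-619WW, against 181 and 617 in run 2), and no doublet caller was run. B and plasma gates shared 1422 PEP-WT and 831 PEP-619WW barcodes, and monocyte or macrophage and neutrophil gates shared 554 and 562. Among barcodes that passed exactly 1 gate, *Ifi204*, *Ifi205*, *Ifi207* and *Ifi211* made up 2.17% of member UMIs in PEP-WT B barcodes (1.99 to 2.36), 4.23% in CD8 T, 11.5% in CD4 T, 26.4% in plasma (24.7 to 28.2), 48.7% in monocyte or macrophage and 58.7% in neutrophil barcodes. Plasma barcodes thus had a larger share than in the overlapping gates, and lay between the other lymphoid and the myeloid classes. *Ifi204* was then 12.1 CPM in B, 10.8 in CD8 T, 67.0 in CD4 T and 550 in monocyte or macrophage barcodes of run 1 PEP-WT. In PEP-619WW the values were 9.04, 13.6, 57.5 and 419 CPM. CD4 T barcodes were the lymphoid class in which *Ifi204* stayed above 50 CPM in both genotypes of run 1. The family sum in 1-gate barcodes of PEP-WT was 2923 CPM in the monocyte or macrophage class, 1625 in B and 286 in plasma. The distance in CPM between B and plasma barcodes was thus wider than in the overlapping gates. CPM are relative to depth, and these plasma barcodes had a median of 10401 UMIs against 2396 in B. No value without immunoglobulin genes in the totals is given for this comparison.

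**Figure D2:**
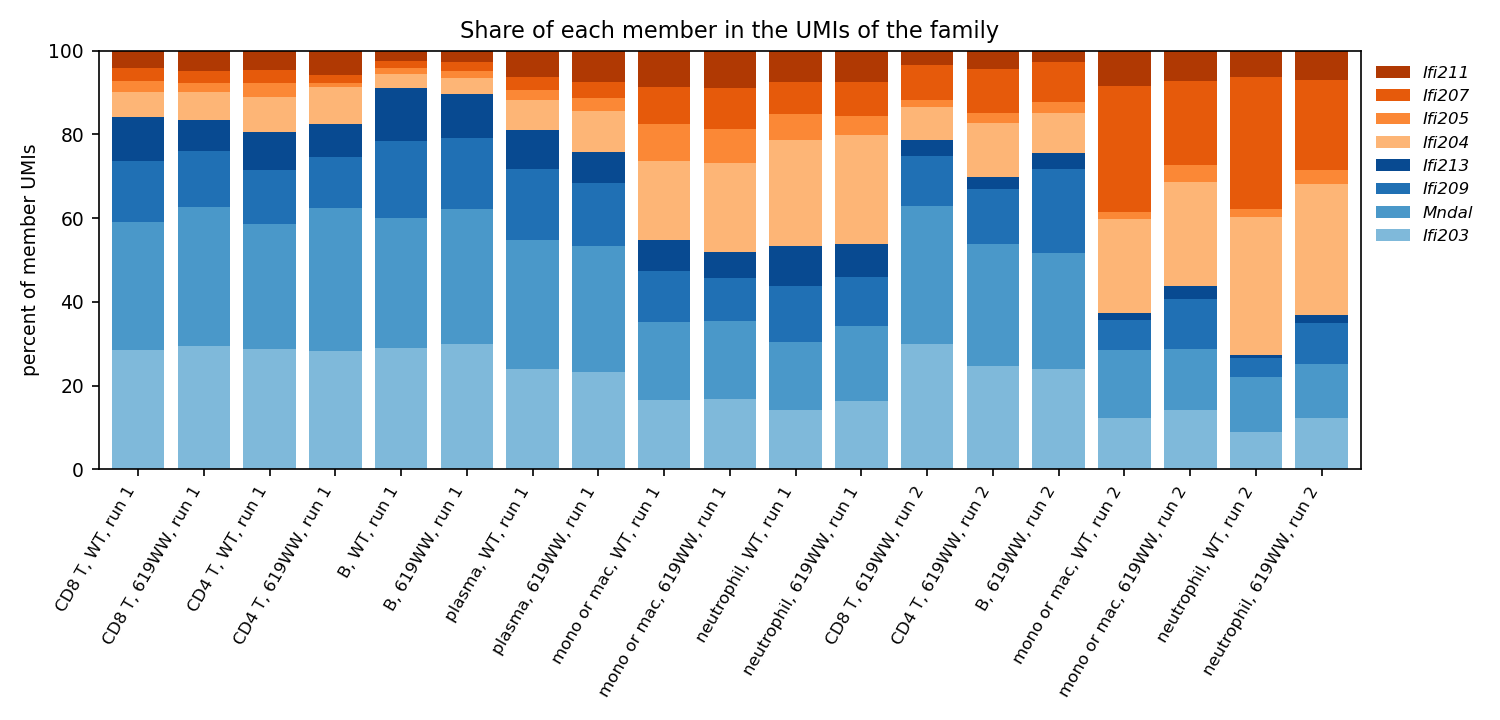
Percent of member UMIs (y axis) that came from each of the 8 genes in each pool of at least 50 barcodes (x axis: cell class, genotype, run; mono or mac is the monocyte or macrophage gate). Blue shades are *Ifi203*, *Mndal*, *Ifi209* and *Ifi213*, and orange shades are *Ifi204*, *Ifi205*, *Ifi207* and *Ifi211*, which made up 8.82% of the PEP-WT B pool and 45.2% of the PEP-WT monocyte or macrophage pool of run 1.

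Among the gates, barcodes with UMIs of several members were most frequent in the monocyte or macrophage gate. In run 1, 31.5% of thinned PEP-WT monocyte or macrophage barcodes had UMIs of 3 or more members, against 12.2% of B, 7.17% of CD8 T and 3.86% of plasma barcodes. In PEP-619WW the shares were 13.3%, 6.75%, 3.40% and 1.84%. The neutrophil gate of run 1 had 18.0% in PEP-WT but 5.20% in PEP-619WW, below the B gate of that library. In PEP-619WW of run 2 it had 4.19%, against 6.28% in B and 14.7% in the monocyte or macrophage gate. In PEP-WT of run 2 the monocyte or macrophage gate had 2.38% and the neutrophil gate 0.202%, below the 5.07% of barcodes that passed no gate. No hemoglobin-rich barcode of run 1 PEP-619WW and 0.587% of those of run 1 PEP-WT had 3 or more.

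In run 1 the family was lower in PEP-619WW than in PEP-WT in all 6 gates. The ratio was largest in neutrophil barcodes, where the sum went from 1579 to 840 CPM, 1.88-fold lower (interval 1.81 to 1.95). It was 1.51-fold lower in the monocyte or macrophage gate (1.48 to 1.54), 1.49-fold in plasma (1.45 to 1.52), 1.42-fold in B (1.40 to 1.45), 1.39-fold in CD8 T (1.36 to 1.43) and 1.17-fold in CD4 T (1.11 to 1.23). Over all barcodes the members went from 1138 to 786 CPM. In the CD4 T gate the order turned when only barcodes that passed 1 gate were used, with 917 CPM in PEP-WT and 961 in PEP-619WW, a log2 ratio of 0.07 (-0.05 to 0.18). In the other 5 gates the sum stayed lower in PEP-619WW in every alternative, by log2 ratios between -0.08 and -1.14. In a sum over barcodes, fewer cells with the RNA and less RNA per cell cannot be told apart. A CPM also depends on total UMIs, and the median depth was higher in PEP-619WW in each gate of run 1. In CD8 T it was 6038 UMIs in PEP-WT and 8660 in PEP-619WW. There 96.9% and 97.3% of barcodes had a member UMI at full depth, and 62.6% and 49.7% when thinned to 1000 UMIs. The part of depth in the ratio was not tested.

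Marker RNA of other cell types, and of a gate's own cell type, also moved with genotype in run 1. Summed CPM of 5 erythroid genes ranged from 1423 to 3230 over the PEP-WT gates and from 103 to 1268 over the PEP-619WW gates. The 4 neutrophil markers summed to 2596 CPM in the PEP-WT and 5259 in the PEP-619WW monocyte or macrophage gate, and to 8344 and 14167 CPM in the neutrophil gates. The 4 plasma markers were higher in PEP-619WW in all 6 gates, from 2291 to 3760 CPM in B and from 1961 to 2990 in CD8 T, and the 3 B markers were lower in all 6, from 7761 to 6088 CPM in B and from 4344 to 3021 in plasma. Their part in the family's ratio was not tested. With immunoglobulin, hemoglobin and mitochondrial genes taken out of the totals, the log2 ratio was -0.56 in the monocyte or macrophage gate against -0.59 with them.

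The ratio was not equal over the members. By a description of at least 1.5-fold with at least 50 UMIs over both genotypes, 4 of 8 members were lower in PEP-619WW in CD8 T (background 4.69% of all genes), 2 in CD4 T (6.66%), 2 in B (3.95%), 4 in plasma (4.28%), 4 in the monocyte or macrophage gate (5.14%) and 8 in the neutrophil gate (9.55%). With 1-gate barcodes, where 6 to 8 members had enough UMIs, these counts were 1 in CD8 T (background 2.94%), 0 in CD4 T (8.07%), 1 in B (3.27%), 2 in plasma (2.92%), 2 in monocyte or macrophage (4.41%) and 5 in neutrophil barcodes (15.7%). Without immunoglobulin, hemoglobin and mitochondrial genes in the totals they were 2 (background 4.07%), 2 (6%), 1 (3.25%), 2 (3.42%), 3 (4.39%) and 8 (8.23%), in the same order of gates. Thinning moved them as well. With all genes thinned to 1000 UMIs per barcode they were 2 (background 13.8%), 3 (18.7%), 1 (7.21%), 2 (12.3%), 8 (16.9%) and 7 (16.2%), in the same order of gates. Counts from a separate thinning are in the last section for 2 of the gates. In the overlapping gates none of the 8 was 1.5-fold higher in run 1, where 3.91%, 6.38%, 5.52%, 4.54%, 3.75% and 3.88% of all genes were, in the same order of gates. In 1-gate B barcodes *Ifi205* was 1.5-fold higher in PEP-619WW, with 5.82 and 8.90 CPM from 88 and 64 UMIs, where 6.09% of all genes were. At 2-fold, 3 of 8 were lower in the neutrophil gate (background 2.19%), 1 in CD4 T (1.34%) and 0 in CD8 T (1.49%), B (1.04%), plasma (1.16%) and the monocyte or macrophage gate (1.28%).

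In the overlapping gates *Ifi213* had the lowest ratio of the 8 members in 4 of the 6, and *Ifi209* was below the family sum in all 6. Among 1-gate barcodes *Ifi211* had a lower ratio than *Ifi213* in B, with 10.7 CPM in PEP-WT and 6.95 in PEP-619WW. So did *Ifi209* in monocyte or macrophage barcodes, with 333 and 206 CPM. *Ifi213* had 99.9 CPM in PEP-WT and 51.2 in PEP-619WW CD8 T barcodes, 155 and 89.96 in B, 58.8 and 32.3 in plasma, 137 and 75.7 in the monocyte or macrophage gate, and 150 and 65.0 in the neutrophil gate. Its log2 ratio was -0.97 in CD8 T (-1.10 to -0.83), -0.78 in B, -0.87 in plasma, -0.85 in the monocyte or macrophage gate and -1.20 in the neutrophil gate. In CD4 T it was -0.42 (-0.70 to -0.15), with 86.8 CPM in PEP-WT and 64.8 in PEP-619WW. *Ifi209* had log2 ratios of -0.62 in CD8 T, -0.31 in CD4 T, -0.64 in B, -0.76 in plasma, -0.81 in the monocyte or macrophage gate and -1.12 in the neutrophil gate, where it went from 213 to 98.4 CPM. PEP-WT was the higher library for both genes in all 6 gates, except that *Ifi209* in CD4 T turned to 0.24 (-0.10 to 0.58) in 1-gate barcodes. *Ifi209*, the member with a window but without the promoter word, had a lower ratio than *Ifi203* and *Mndal* in each of the overlapping gates of run 1, in CD4 T within counting error of *Ifi203*. In 1-gate CD4 T barcodes it was above both, and in run 2 its ratio was the higher one.

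*Ifi203* and *Mndal*, whose promoter stretches were identical, had close ratios in 5 of the 6 overlapping gates of run 1. *Ifi203* went from 351 to 255 CPM in B and from 306 to 204 in the monocyte or macrophage gate, and *Mndal* from 375 to 274 and from 342 to 227. The log2 ratios in B were -0.46 for *Ifi203* (-0.51 to -0.41) and -0.45 for *Mndal* (-0.50 to -0.41), and in the monocyte or macrophage gate they were -0.58 and -0.59. In CD4 T the pair parted, with -0.25 for *Ifi203* (-0.40 to -0.11) and -0.03 for *Mndal* (-0.16 to 0.11), although the intervals overlapped. In run 2 *Ifi203* had the wider ratio, with 1.67 (1.61 to 1.73) against 1.27 for *Mndal* (1.21 to 1.32) in the monocyte or macrophage gate and 1.95 (1.58 to 2.34) against 1.45 (1.14 to 1.77) in the neutrophil gate, where the intervals overlapped. In 1-gate neutrophil barcodes of run 1 the pair lay on opposite sides of 0, with 0.26 for *Ifi203* (-0.37 to 0.90) and -0.55 for *Mndal* (-1.14 to 0.018).

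The sensor gene *Ifi204* had a ratio nearer to 0 than the family sum in each of the overlapping gates of run 1. This did not hold in every class of 1-gate barcodes. There *Ifi204* had -1.32 against -1.11 for the family in the neutrophil class, -0.42 against -0.30 in B and -0.22 against 0.07 in CD4 T. In CD8 T it turned to 0.33 (-0.16 to 0.82). It held in 1-gate monocyte or macrophage barcodes, where *Ifi204* went from 550 to 419 CPM and the family from 2923 to 2070. In 1-gate plasma barcodes it held by less, with 30.0 and 21.0 CPM against 286 and 197. In the overlapping gates the log2 ratio of *Ifi204* was -0.43 in the monocyte or macrophage gate (-0.49 to -0.36) and -0.87 in the neutrophil gate (-0.98 to -0.77), the 2 gates where it was high. In CD4 T it was -0.17 (-0.44 to 0.10), with 79.8 CPM in PEP-WT and 70.9 in PEP-619WW, so a difference was not detectable at this depth. *Ifi207* had -0.45 and -0.87 in the 2 myeloid gates, and -0.12 in B (-0.31 to 0.06). *Ifi205* went from 160 to 99.2 CPM in the monocyte or macrophage gate and from 95.4 to 38.9 in the neutrophil gate, log2 ratios of -0.69 and -1.29. In CD4 T *Ifi205* went from 32.4 to 7.88 CPM, a log2 ratio of -2.04 (-2.77 to -1.37), but in 1-gate CD4 T barcodes it was at 6.02 and 1.62 CPM, from 8 and 2 UMIs. *Ifi211* had -0.58 and -0.88 in the myeloid gates and 0.11 in CD4 T (-0.25 to 0.46).

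**Figure D3:**
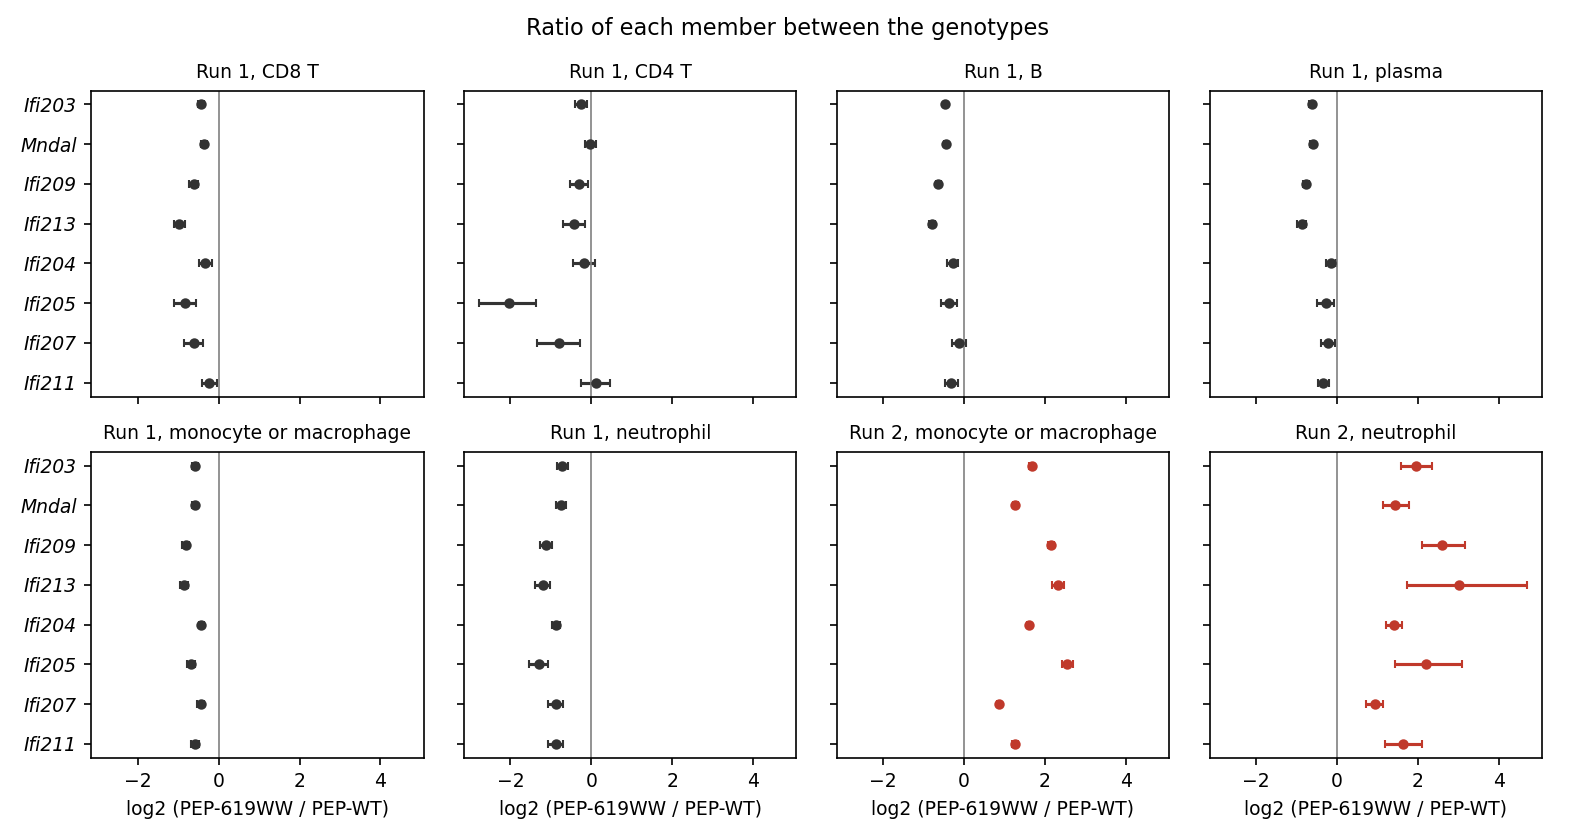
Log2 ratio of PEP-619WW to PEP-WT (x axis) for each member (y axis) in the 6 gates of run 1 (grey) and the 2 comparable gates of run 2 (red), with exact 95% intervals that cover counting error only. All points of the run 1 neutrophil gate are below 0, all points of both run 2 gates are above it, and *Ifi211* in CD4 T is the one point of run 1 above 0.

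In run 2 the direction was opposite in both gates that could be compared. The members summed to 482 CPM in PEP-WT and 1309 in PEP-619WW monocyte or macrophage barcodes, 2.72-fold higher (2.68 to 2.76), and to 363 and 1014 CPM in the neutrophil gate, 2.79-fold higher (2.58 to 3.02). All 8 members were at least 1.5-fold higher in PEP-619WW in each gate, against a background of 23.6% and 27.5% of all genes, and 7 of the 8, all but *Ifi207*, were at least 2-fold higher in each (background 12.5% and 9.47%). None was 1.5-fold lower (15.1% and 10.6% of all genes). With 1-gate barcodes 8 of 8 were higher in the monocyte or macrophage class (background 21.3%) and 5 of the 5 with enough UMIs in the neutrophil class (34.4%). The PEP-619WW libraries were close to each other in the monocyte or macrophage gate, with 1219 CPM in run 1 and 1309 in run 2, whereas the PEP-WT libraries had 1838 and 482 CPM. In 1-gate barcodes of that class PEP-619WW had 2070 CPM in run 1 and 1352 in run 2, and PEP-WT had 2923 and 483. In 1-gate neutrophil barcodes PEP-619WW had 986 and 565 CPM and PEP-WT 2124 and 243. In each of these pairs the runs were farther apart in PEP-WT than in PEP-619WW.

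*Ifi205*, *Ifi213* and *Ifi209* had the widest ratios of run 2 and *Ifi207* the narrowest. *Ifi205* had 8.69 CPM in PEP-WT and 51.0 in PEP-619WW monocyte or macrophage barcodes, a log2 ratio of 2.56 (2.42 to 2.70). *Ifi213* had 8.06 and 40.3 CPM, 2.32 on the log2 scale (2.17 to 2.47), and *Ifi209* 34.95 and 156 CPM, 2.15 (2.08 to 2.23). *Ifi204* went from 108 to 328 CPM, 1.61 on the log2 scale (1.56 to 1.65), and *Ifi203* from 59.0 to 188 CPM, 1.67 (1.61 to 1.73). *Mndal* had a log2 ratio of 1.27, *Ifi211* 1.26 and *Ifi207* 0.85, with 145 CPM of *Ifi207* in PEP-WT and 262 in PEP-619WW. In the neutrophil gate *Ifi213* rested on a PEP-WT level of 2.396 CPM, and its log2 ratio of 3.03 had an interval of 1.74 to 4.69. *Ifi209* and *Ifi213* were thus among the widest ratios in both runs, with opposite signs.

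The make-up of the family differed between the runs too. *Ifi207* was 8.88% of member UMIs in the PEP-WT monocyte or macrophage gate of run 1 and 30.1% in that of run 2, and 9.84% and 20.04% in PEP-619WW. *Ifi213* was 7.44% and 1.67% in PEP-WT and 6.21% and 3.08% in PEP-619WW. Among PEP-619WW B barcodes *Ifi207* went from 2.13% in run 1 to 9.61% in run 2 and *Ifi213* from 10.6% to 3.75%. Of the run 2 B barcodes, 65 also passed the monocyte or macrophage gate. In 1-gate B barcodes *Ifi207* was 0.515% in run 1 and 1.11% in run 2, the latter from 10 UMIs, while *Ifi213* was 12.7% and 3.88%. The PEP-619WW lymphoid gates of run 2 summed to 700 CPM in CD8 T (671 to 729.9), 752 in CD4 T (726 to 778) and 1116 in B (1065 to 1170). In PEP-WT of run 2 the CD8 T gate had 467 CPM from 28 barcodes (390.0 to 554) and the CD4 T gate 569 from 12 (460.0 to 698), which are given as values only. The 15 barcodes of the PEP-619WW plasma gate of run 2 had 338 CPM (243 to 459), also given as a value only. The 4 plasma markers summed to 13548.5 CPM in these barcodes, of which *Jchain* had 12418, *Sdc1* and *Prdm1* had 2 UMIs each, and *Siglech*, a plasmacytoid dendritic cell gene, had 1163 CPM.

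The myeloid gates differed in their markers between the runs. *Ly6g*, the defining neutrophil surface gene, had 13.9 CPM in PEP-WT and 8.76 in PEP-619WW in the run 2 neutrophil gate against 155 and 246 in run 1. The 4 neutrophil markers together, *Ly6g* among them, summed to 2005 and 1698 CPM in that gate of run 2, against 45.1 and 114 CPM in the monocyte or macrophage gate of run 2 and 8344 and 14167 in the neutrophil gate of run 1. *C1qa*, a macrophage complement gene, had 1472 and 268 CPM in the run 2 neutrophil gates and 2376 and 703 in the run 2 monocyte or macrophage gates. In run 1 *C1qa* had 158 CPM in PEP-WT and 146 in PEP-619WW neutrophil barcodes, and 315 and 421 in monocyte or macrophage barcodes. Melanocytic barcodes of run 2 had 334 CPM of the members in PEP-WT (318 to 351) and 1112 in PEP-619WW (980.1 to 1256), the same direction as the gated barcodes of their libraries. Melanocytic barcodes could also pass a gate, and this overlap was not counted. In PEP-WT of run 2 the 6 melanocyte genes summed to 151 CPM in the monocyte or macrophage gate and 284 over all barcodes. The melanocytic barcodes are therefore not a separate set of cells from the gates.

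A split of the monocyte or macrophage gate by *C1qa* was made after the values were seen. Barcodes with at least 5 UMIs of *C1qa* were 11.6% of the gate in PEP-WT and 13.0% in PEP-619WW of run 1, and 69.7% and 24.4% in run 2. In run 2 the family was higher in PEP-619WW at each level of *C1qa*, with 457 and 1216 CPM among barcodes with at least 5 UMIs, 548 and 1214 CPM among those with 1 to 4, and 688 and 1384 CPM among those with none. The log2 ratios were 1.41 (1.38 to 1.44), 1.15 (1.08 to 1.21) and 1.01 (0.95 to 1.06). In run 1 the family went from 2051 to 1243 CPM in barcodes without *C1qa*, a log2 ratio of -0.72 (-0.76 to -0.68), and from 1851 to 1077 CPM in barcodes with 1 to 4 UMIs, a log2 ratio of -0.78 (-0.84 to -0.72). In barcodes of run 1 with at least 5 UMIs of *C1qa* the family had 1378 CPM in PEP-WT and 1303 in PEP-619WW, a log2 ratio of -0.08 (-0.14 to -0.02), and *Ifi204* was the higher in PEP-619WW by 0.26 (0.14 to 0.39). The split is by raw UMIs, so it also sorts barcodes by depth. In run 1 the median was 5309 UMIs in PEP-WT and 5034.5 in PEP-619WW without *C1qa*, and 14651 and 16892 with at least 5 UMIs of it. The neutrophil markers were also higher in the PEP-619WW gate of run 1. The part of depth and of these markers in this split was not tested.

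Barcodes were thinned to 1000 UMIs and split by their UMIs of 15 interferon-stimulated genes (ISGs), none of them a member. The level is a plain sum, so abundant genes weigh most. *Ifi27l2a* had the highest CPM of the 15 in each gate compared between the genotypes. In PEP-WT it had 2316 CPM against 430 for *Bst2* in B of run 1. In the monocyte or macrophage gate of run 2 the PEP-WT values were 822 and 395. The levels thus follow *Ifi27l2a* more than the other ISGs. Barcodes at 3 or more ISG UMIs had more member UMIs than those at 1 to 2 in each gate that had both levels, with overlapping intervals in plasma of both genotypes and in PEP-619WW CD4 T of run 1. The step from 0 to 1 to 2 ISG UMIs was within counting error in many pools, and in the PEP-WT neutrophil gate of run 2 it went from 0.249 to 0.203. In run 1 PEP-WT B barcodes had 1.14 member UMIs at 0 ISG UMIs (1.04 to 1.25), 1.30 at 1 to 2 (1.25 to 1.36) and 1.74 at 3 or more (1.70 to 1.78). PEP-619WW B barcodes had 0.919 (0.833 to 1.01), 1.05 (0.998 to 1.11) and 1.37 (1.31 to 1.44), lower at each level. In CD8 T barcodes the genotypes had 0.604 and 0.676 member UMIs at 0 ISG UMIs, with overlapping intervals, and 1.27 and 0.960 at 3 or more. The widest step of run 1 between those levels was in PEP-WT monocyte or macrophage barcodes, from 0.944 at 1 to 2 ISG UMIs (0.782 to 1.13) to 2.56 at 3 or more (2.47 to 2.64). PEP-619WW had 0.948 (0.839 to 1.07) and 1.47 (1.38 to 1.55) at these levels, so the genotypes parted at the upper level, which has no upper bound. In the monocyte or macrophage gate, 90.5% of the PEP-WT barcodes and 69.9% of the PEP-619WW barcodes were at that level.

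In the monocyte or macrophage gate of run 2 the genotypes differed at each ISG level. PEP-WT monocyte or macrophage barcodes had 0.328 member UMIs at 0 ISG UMIs (0.305 to 0.353), 0.421 at 1 to 2 (0.397 to 0.446) and 1.00 at 3 or more (0.951 to 1.06), and PEP-619WW barcodes had 0.627 (0.577 to 0.680), 1.01 (0.962 to 1.06) and 2.15 (2.09 to 2.21). In the neutrophil gate the intervals overlapped at 0 ISG UMIs, with 0.249 in PEP-WT (0.185 to 0.328) and 0.380 in PEP-619WW (0.305 to 0.467). In the monocyte or macrophage gate *Ifi204* went from 0.0789 to 0.255 UMIs per barcode between the lowest and the highest level in PEP-WT and from 0.166 to 0.570 in PEP-619WW. *Ifi213* went from 0.00182 to 0.0272 and from 0.00656 to 0.0719. *Ifi207* had the smallest ratio between the levels in that gate, from 0.110 to 0.208 and from 0.155 to 0.399. In the neutrophil gate *Ifi204* went from 0.0846 to 0.232 in PEP-WT and from 0.152 to 0.501 in PEP-619WW, while *Ifi207* went from 0.124 to 0.0982 and from 0.118 to 0.261.

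**Figure D4:**
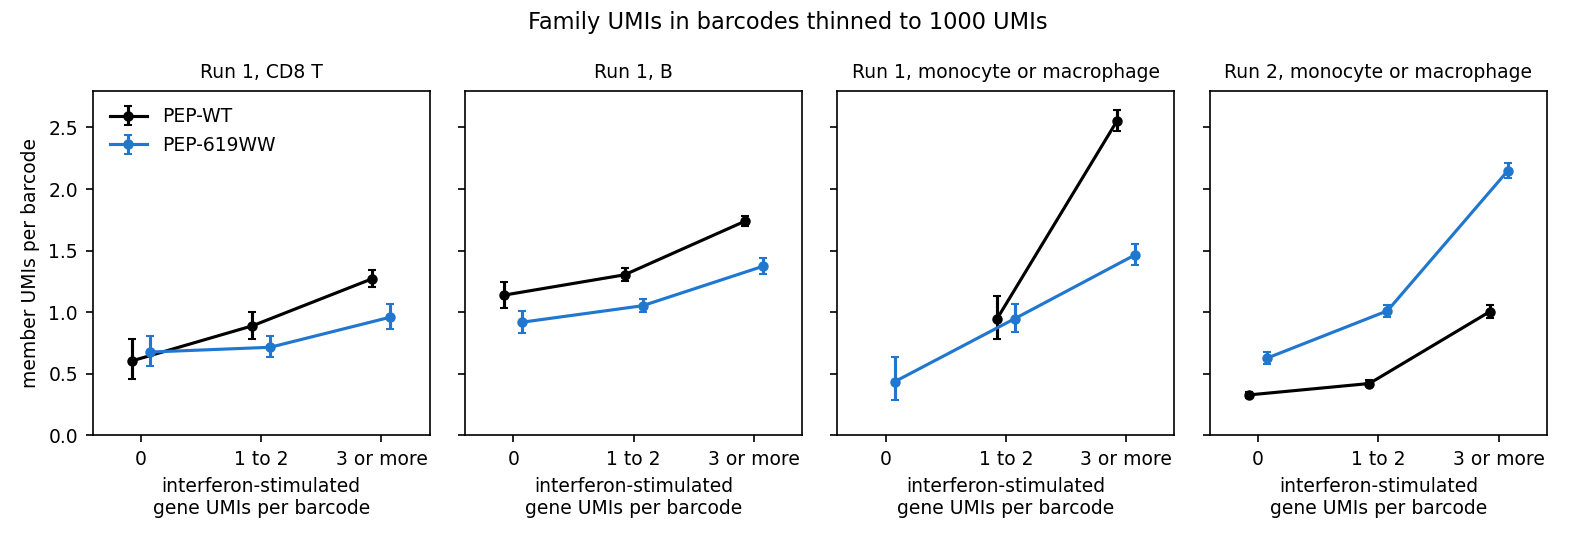
Member UMIs per barcode (y axis) in barcodes thinned to 1000 UMIs and grouped by their UMIs of 15 interferon-stimulated genes (x axis), with exact Poisson 95% intervals, for PEP-WT (black) and PEP-619WW (blue). Levels with fewer than 50 barcodes are not drawn, which leaves out level 0 of PEP-WT in the run 1 monocyte or macrophage gate. The line is higher at 3 or more than at 1 to 2 in each panel.

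The ISGs had a median on the members' side of 0 in each gate of both runs. The 15 ISGs had a median log2 ratio of -0.74 in the monocyte or macrophage gate of run 1, with 11 of 15 at least 1.5-fold lower and 0 higher, and of 1.30 in run 2, with 0 lower and 14 higher. The members had medians of -0.59 and 1.64 and all genes tested -0.07 and 0.12. In run 1 the ISG median was -0.99 in CD8 T (10 of 15 lower), -0.30 in CD4 T (4), -0.72 in B (10), -0.65 in plasma (10) and -1.18 in the neutrophil gate (14), and the members had -0.53, -0.28, -0.41, -0.46 and -0.88. *Isg15*, which encodes a ubiquitin-like protein, was among the 3 lowest list genes in each gate of run 1, with log2 ratios from -1.93 in the neutrophil gate to -0.65 in CD4 T. *Rsad2*, which encodes the antiviral enzyme viperin, had -1.55 in CD8 T and -0.92 in B, and *Irf7*, a transcription factor of the interferon response, had -1.11 in the monocyte or macrophage gate. *Ifi44* had -1.33 in CD8 T, -1.24 in the monocyte or macrophage gate and -1.62 in the neutrophil gate, and *Ifit3* -0.98 in plasma and -1.57 in the neutrophil gate. In run 2 *Isg20*, an exonuclease gene, had 2.35 in the monocyte or macrophage gate and *Ifit3* 2.94 in the neutrophil gate. The study reported *Isg20*, *Oasl2*, *Ifi44*, *Isg15* and *Ifi27l2a* higher in PEP-WT CD4 T cells. In the CD4 T gate of run 1 their log2 ratios were -0.21, -0.65, -0.59, -0.65 and -0.41, the same direction. Run 2 had too few PEP-WT CD4 T barcodes to compare.

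The other PYHIN genes that could be tested had the members' direction in the myeloid gates of both runs, and *Aim2*, the inflammasome sensor of DNA, was nearest to 0 there. Its log2 ratios in run 1 were -0.42 in CD8 T (-0.65 to -0.18), -0.39 in plasma (-0.56 to -0.22), -0.14 in B (-0.27 to -0.0092), -0.32 in the neutrophil gate (-0.66 to 0.013), -0.16 in the monocyte or macrophage gate (-0.34 to 0.012) and -0.11 in CD4 T (-0.53 to 0.31), so 3 of the 6 intervals held 0. In the monocyte or macrophage gate of run 1 *Ifi206* had -0.85, *Ifi208* -1.03 and *Ifi214* -0.63, and 3 of the 4 tested genes were at least 1.5-fold lower. In run 2 *Ifi206* had 2.15, *Ifi208* 2.41, *Ifi214* 2.403 and *Aim2* 0.48 (0.36 to 0.59). In the run 2 neutrophil gate *Ifi206* had 3.38 (2.21 to 4.85) and *Ifi208* 3.25 (1.62 to 5.57), from 6 and 3 UMIs in PEP-WT, and *Aim2* had 0.54 (0.19 to 0.90). *Ifi202b* was at 0 UMIs in each gate of run 1. *Ifi214* shares 3′ sequence with *Ifi209*, and *Ifi206* and *Ifi208* share it with *Ifi213*. Apart from *Aim2*, these genes are near the members by name and position, so they are not an outside comparison.

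The median of the DNA sensing genes was nearer to 0 than that of the members in each gate of both runs. Of the 12 genes of this list, 9 in CD4 T and 10 in the other gates of run 1 had enough UMIs, and their median log2 ratio was -0.22 in CD8 T, -0.03 in CD4 T, -0.20 in B, -0.25 in plasma, -0.20 in the monocyte or macrophage gate and -0.25 in the neutrophil gate. At most 1 tested gene was 1.5-fold lower in a gate of run 1, and none was higher. Single genes reached the members' ratios. *Cgas*, the sensor that makes the messenger for STING, had -1.43 in the neutrophil gate (-1.98 to -0.90) and -0.59 in the monocyte or macrophage gate, and *Zbp1*, a sensor of Z-form nucleic acid that is itself induced by interferon, had -0.63 in plasma (-0.68 to -0.58) and -0.49 in B. *Tbk1*, the kinase downstream of STING, was the highest list gene in each gate of run 1, from 0.06 in the neutrophil gate (-0.23 to 0.36) to 0.29 in CD8 T (0.09 to 0.49). *Sting1* itself had -0.31 in the monocyte or macrophage gate (-0.45 to -0.18) and 0.26 in CD4 T (-0.03 to 0.54), and *Ddx41* was the lowest list gene in CD4 T, at -0.78. *Ikbke* had values from -0.31 in CD8 T to 0.24 in CD4 T, *Samhd1* -0.10 in the monocyte or macrophage gate, -0.13 in CD8 T and 0.05 in B, and *Irf3* -0.13 in CD8 T. In run 2 the list median was 0.39 in the monocyte or macrophage gate and 0.46 in the neutrophil gate, with 5 of 11 and 4 of 10 tested genes at least 1.5-fold higher, against 23.6% and 27.5% of all genes. *Zbp1* had 1.52 and 1.59 and *Samhd1* 1.57 and 1.20 (1.05 to 1.35) in these gates, where the members' medians were 1.64 and 1.79. *Pycard*, the inflammasome adaptor ASC, was lower in PEP-619WW in both, at -0.33 and -0.82, *Ddx41* had -0.11 (-0.22 to -0.0087) and 0.45 (-0.086 to 1.02), and *Casp1* 0.047 (-0.046 to 0.14) and 0.21 (-0.23 to 0.67). *Ifnb1*, interferon beta itself, had 133 UMIs in PEP-WT and 14 in PEP-619WW monocyte or macrophage barcodes of run 2, 2.14 and 0.409 CPM, and 0 UMIs in each gate of run 1. The PEP-WT myeloid gate of run 2, in which the family and the ISGs were low, was the one with the most *Ifnb1*.

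**Figure D5:**
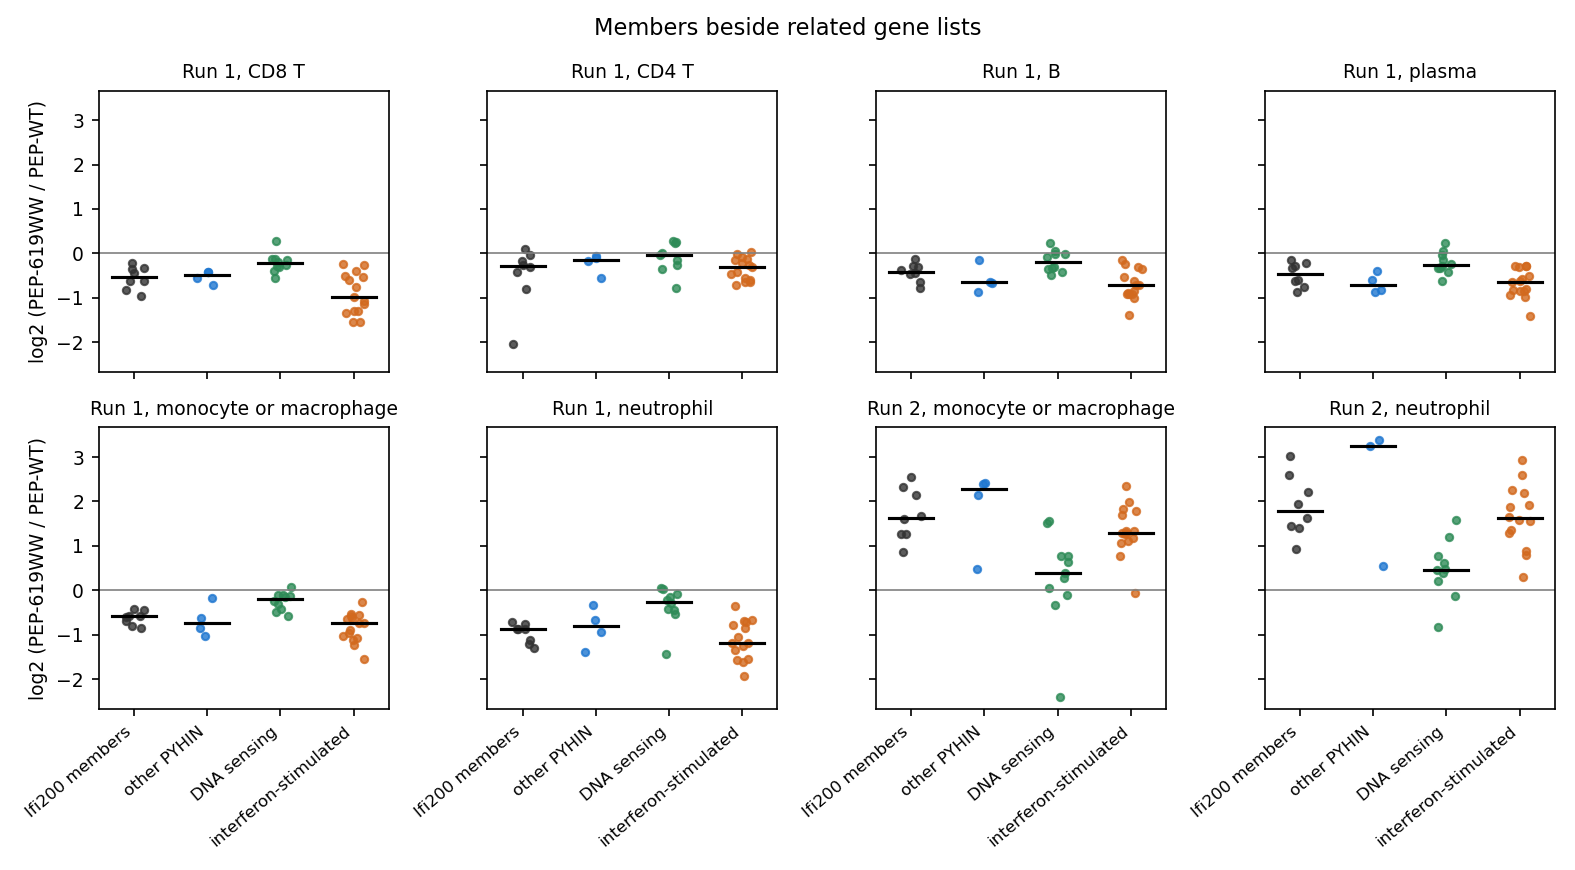
Log2 ratio of PEP-619WW to PEP-WT (y axis) for the 8 Ifi200 members, the other PYHIN genes, the DNA sensing genes and the interferon-stimulated genes with at least 50 UMIs (x axis), by gate and run. Each point is a gene and each bar the median of the list, and in the monocyte or macrophage gate the members' median is -0.59 in run 1 and 1.64 in run 2.

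The genes whose levels followed the family sum most closely over the 12 pools of run 1 were *Rnf213*, *Daxx*, *Parp14*, *H2-T22* and *Gbp6*. Their Pearson correlations of log2(CPM + 10) were 0.97, 0.97, 0.96, 0.96 and 0.96 among 5476 genes with a mean of at least 20 CPM. Over the 19 pools of both runs *Daxx* had 0.98, *Parp14* 0.93 and *Rnf213* 0.89, while *H2-T22* had 0.56 and *Gbp6* 0.40. The pools share libraries and, where gates overlap, barcodes, so these values describe the pools and carry no test.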

How the data were processed

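Cells of 2 genotypes, described in the methods as splenocytes, were measured by 10x Genomics single cell RNA sequencing, with 1 pooled library per genotype and run. The deposited values are raw UMI counts per gene and barcode, which the authors made with Cell Ranger on a mouse mm10 transcriptome; the submitters' processing notes give version 6.0.0 and the methods a later one. Of 32285 genes, 32158 matched a current symbol. No column was left without a sample.

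The members and the gene lists were chosen with earlier results of these data known. *Mnda* and *Mx1* were not matched and were left out of the lists; *Sting1* is the current symbol of *Tmem173*. UMIs were summed per gate, genotype and run with Python 3.11.15, numpy 2.4.6 and scipy 1.17.1, and given as counts per 1000000 UMIs of the pool with exact Poisson intervals. Log2 ratios have exact conditional binomial intervals and shares Clopper-Pearson ones, at 95%. A barcode could pass several gates. Pools under 50 barcodes gave values only. For the ISG split and the shares, barcodes were thinned to 1000 UMIs and shallower ones (978 to 1199 per library) left out. Hemoglobin-rich barcodes had at least 100 hemoglobin UMIs and passed no gate. A gene counted as past the fold at 1.5-fold with at least 50 UMIs over both genotypes. There is no replicate, so no p-value is given. Named list genes were those with the 3 highest and 3 lowest ratios of a gate, besides *Aim2*, *Sting1*, *Cgas*, *Zbp1*, the other PYHIN genes, *Ifnb1* and *Samhd1* in run 2, named after their values were seen. The ratio and its interval were tested on simulated Poisson counts of the run 1 B gate with 11164 genes, 200 of them changed, where 95.5% of intervals held the true value. This checks the calculation only, since the simulated counts had no spread between cells or mice. Alternatives were another choice of barcodes, totals, scaling, thinning, depth, mitochondrial share (at most 10%), the *Mt2* limit of the study for T cells, fold and minimum, and, added after the data were seen, the *C1qa* split.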

Additional observations from a re-analysis of the deposited data

Results flagged for a closer look

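The genotypes differed in opposite directions in the 2 runs, in both gates that could be compared. The difference between the runs was not tested, since each genotype had 1 library per run. In the monocyte or macrophage gate the family's log2 ratio of PEP-619WW to PEP-WT was -0.59 in run 1 and 1.44 in run 2. The members' log2 ratios of run 2 were 1.67 for *Ifi203*, 1.61 for *Ifi204*, 2.56 for *Ifi205*, 0.85 for *Ifi207*, 2.15 for *Ifi209*, 1.26 for *Ifi211*, 2.32 for *Ifi213* and 1.27 for *Mndal*, and each was below 0 in run 1, from -0.85 for *Ifi213* to -0.43 for *Ifi204*. In the neutrophil gate the family had -0.91 in run 1 and 1.48 in run 2. The members had 1.95 for *Ifi203*, 1.41 for *Ifi204*, 2.21 for *Ifi205*, 0.93 for *Ifi207*, 2.61 for *Ifi209*, 1.63 for *Ifi211*, 3.03 for *Ifi213* and 1.45 for *Mndal* in run 2, and from -1.29 for *Ifi205* to -0.71 for *Ifi203* in run 1. The neutrophil gates had 13.9 and 8.76 CPM of *Ly6g* in PEP-WT and PEP-619WW of run 2 against 155 and 246 in run 1, and 1472 and 268 CPM of *C1qa* against 158 and 146. All 4 neutrophil markers together summed to 2005 and 1698 CPM in run 2 against 8344 and 14167 in run 1.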

How the results depend on the processing

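No paired analysis was possible because each genotype had 1 library per run and the labels give no replicate numbers, and leaving out a replicate was not possible for the same reason. Gates overlap, cells of a library are not replicates, and the cause of a change under an alternative was not tested. Of 74 alternative family ratios, 36 moved by less than counting error, 37 moved by more, and 1 turned. With only barcodes that passed 1 gate, the log2 ratio in CD4 T of run 1 turned to 0.068, and the other ratios of PEP-619WW to PEP-WT were -0.35 in CD8 T, -0.30 in B, -0.54 in plasma, -0.50 in the monocyte or macrophage gate and -1.11 in the neutrophil gate of run 1, and 1.48 and 1.22 in the 2 myeloid gates of run 2. Without immunoglobulin, hemoglobin and mitochondrial genes in the totals they were -0.43 in CD8 T, -0.45 in B, -0.52 in plasma and -0.56 in the monocyte or macrophage gate of run 1. Under median of ratios scaling they were -0.54 in B, -0.54 in the monocyte or macrophage gate and -0.81 in the neutrophil gate of run 1, and 1.31 and 1.34 in run 2. Thinned to 1000 UMIs they were -0.51 in CD4 T, -0.44 in B, -0.90 in the monocyte or macrophage gate and -1.14 in the neutrophil gate of run 1, and 1.53 in the monocyte or macrophage gate of run 2. With no *C1qa* the monocyte or macrophage ratio was -0.72 in run 1 and 1.01 in run 2, with 1 to 4 UMIs of *C1qa* -0.78 and 1.15, and with at least 5 -0.081 and 1.41. The median of all genes moved by at most 0.15 between scalings.

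The log2 ratio of the monocyte or macrophage to the B gate, 0.60 in PEP-WT and 0.52 in PEP-619WW of run 1 and 0.23 in PEP-619WW of run 2, was 0.85, 0.65 and 0.37 in 1-gate barcodes, 0.58 and 0.48 in run 1 with the reduced totals, 0.56, 0.60 and 0.40 under median of ratios scaling, and 0.14 and 0.37 in PEP-619WW of run 1 and run 2 when thinned.

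Members at least 1.5-fold lower in run 1 were 1 in CD8 T, 0 in CD4 T, 1 in B, 2 in plasma, 2 in the monocyte or macrophage gate and 5 in the neutrophil gate with 1-gate barcodes, and 5 were higher in the neutrophil gate of run 2. With the reduced totals they were 2 in CD8 T (4.07% of all genes), 1 in B (3.25%) and 2 in plasma (3.42%). Thinned, they were 4 in CD4 T and 7 in the monocyte or macrophage gate. A separate thinning of all genes had 18.7% and 16.9% of them at least 1.5-fold lower, and 3 and 8 members. At 2-fold and full depth the counts were 0, 1, 0, 0, 0 and 3 in the order CD8 T, CD4 T, B, plasma, monocyte or macrophage and neutrophil.

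Of 445 alternative values of single members, 426 kept their sign and 19 changed it. Those that were outside counting error before they turned were, in 1-gate barcodes, *Ifi204* (0.33) and *Ifi207* (0.15) in CD8 T, *Ifi203* (0.056) and *Ifi209* (0.24) in CD4 T, *Ifi205* in B (0.61) and *Ifi203* in the neutrophil gate (0.26) of run 1, and *Ifi211* in the neutrophil gate of run 2 (-0.049). When thinned they were *Ifi204* (0.27) and *Ifi211* (0.0035) in CD8 T and *Ifi204* (0.17), *Ifi205* (0.25) and *Ifi207* (0.89) in plasma, and with at least 5 UMIs of *C1qa* they were *Ifi204* (0.26) and *Ifi207* (0.11). No ratio could be given for thinned *Ifi205* and *Ifi207* in CD4 T and 1-gate *Ifi213* in the run 2 neutrophil gate, where a library was at 0.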
